A study of Mus musculus with 24 samples.

Results

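Fibrillar collagens are the chains that build the banded fibrils of connective tissue. The 10 mouse genes followed here, Col1a1, Col1a2, Col2a1, Col3a1, Col5a1, Col5a2, Col5a3, Col11a1, Col11a2 and Col27a1, were taken by their symbol from the 55291 gene names in the count tables, and all 10 passed the filter on low counts. They were measured by RNA sequencing in cultured pulmonary fibroblasts in 8 conditions with 3 libraries each. WT C57BL/6 fibroblasts received PBS, rmCIRP (recombinant mouse cold-inducible RNA-binding protein, an RNA chaperone that acts as a danger signal outside the cell) at 1 μg/ml, rmTGF-β1 (recombinant mouse transforming growth factor-β1, a cytokine known for inducing collagen) at 2 ng/ml, or both proteins for 24 h. Fibroblasts labelled TLR4-/-, from mice that lack the receptor TLR4 by their label, received the same 4 treatments. The cells of a genotype came from a pool of 3 to 4 lungs, of mice aged 4 to 8 weeks, were used at passages 3 to 6 and were kept in serum-reduced Opti-MEM overnight before treatment. With pooled cells the 3 libraries of a condition do not stand for separate animals, and the labels do not say that they were separate cultures. The p-values therefore measure only the spread between these libraries.

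A fibrillar procollagen is made of chains that are hydroxylated and folded into a helix in the endoplasmic reticulum, secreted, trimmed of their propeptides and then cross-linked in the fibril by lysyl oxidases. Type I collagen (Col1a1 and Col1a2) and type III collagen (Col3a1) make up the bulk of lung fibrils, type V collagen (Col5a1, Col5a2, Col5a3) helps to start fibrils and limits their width, and type II and type XI collagens are best known from cartilage, where Col11a1 and Col11a2 act much as type V chains do elsewhere. Type XXVII collagen (Col27a1) forms thin fibrils and is known from cartilage and developing tissues. TGF-β1 is a textbook inducer of type I collagen in fibroblasts, while TLR4 is a receptor of the innate immune system that signals to NF-κB.

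The libraries held 29853346 to 39664606 counts on gene names. Normalized counts of Tlr4 were 630 to 802 in the 12 WT libraries and 702 to 941 in the 12 libraries labelled TLR4-/-, and with PBS the log2 difference was 0.25 ± 0.06 (SE, edgeR adjusted p = 0.0012). The gene named by the label was therefore not lower in the libraries labelled TLR4-/-, and the deposited tables do not show which part of the gene the reads came from. The summed normalized counts of 13 macrophage markers ran from 79311 to 100467 in WT libraries and from 338565 to 437763 in the libraries labelled TLR4-/-, and none of the 13 was at 0 in any group. Epithelial markers summed to 135 to 651, endothelial markers to 714 to 1540, mesothelial markers to 398 to 723 and T or B cell markers to at most 62.8, and 10 chondrocyte markers to 970 to 1795 in WT libraries. Most of the chondrocyte sum came from Acan (1105 ± 36.0 with PBS, SD, n = 3) and Sox9 (331 ± 37.5), while Cnmd, Hapln1 and Ucma were at or near 0 in WT libraries. In bulk RNA, fewer cells of a type and less RNA per cell cannot be told apart. Both the third rmTGF-β1 library and the third library with both proteins labelled TLR4-/- stood apart from their group in several genes. The second of them held 139288 normalized counts of Acta2 against 198599 and 213815 in the other libraries of its group. Several of the collagen tests that rest on these libraries, though not all, are therefore also given without them.

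Promoters of 7 of the 10 genes were matched in RefSeq (build GRCm38.p6), each 250 bases before to 50 bases after the annotated start. Not matched were Col1a1, Col2a1 and Col5a2. The 4 sequences below are shown because their genes stand for the patterns in these data. Col1a2 fell with rmCIRP, Col11a1 fell with rmCIRP and rose with rmTGF-β1, and Col5a3 and Col27a1 rose with each protein in WT cells. They lie at chr6:4505368-4505667 (plus strand, Col1a2), chr3:114030290-114030589 (plus strand, Col11a1), chr9:20815018-20815317 (minus strand, Col5a3) and chr4:63215162-63215461 (plus strand, Col27a1), and are written along the gene's own strand. Capitals mark matches on either strand to the CCAAT box (CCAAT) or to the NF-κB consensus, and no marked match overlaps another.
Col1a2: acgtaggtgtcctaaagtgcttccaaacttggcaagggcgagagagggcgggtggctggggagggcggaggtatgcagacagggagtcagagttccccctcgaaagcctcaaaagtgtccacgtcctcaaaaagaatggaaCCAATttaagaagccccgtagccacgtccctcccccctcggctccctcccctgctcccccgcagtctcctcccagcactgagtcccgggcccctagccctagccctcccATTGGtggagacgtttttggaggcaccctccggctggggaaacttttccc
Col11a1: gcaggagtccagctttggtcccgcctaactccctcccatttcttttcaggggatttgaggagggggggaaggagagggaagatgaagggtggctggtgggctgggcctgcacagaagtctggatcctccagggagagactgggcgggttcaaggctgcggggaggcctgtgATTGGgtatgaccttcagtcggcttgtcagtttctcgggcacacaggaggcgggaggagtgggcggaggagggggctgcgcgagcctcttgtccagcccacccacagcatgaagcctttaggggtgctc
Col5a3: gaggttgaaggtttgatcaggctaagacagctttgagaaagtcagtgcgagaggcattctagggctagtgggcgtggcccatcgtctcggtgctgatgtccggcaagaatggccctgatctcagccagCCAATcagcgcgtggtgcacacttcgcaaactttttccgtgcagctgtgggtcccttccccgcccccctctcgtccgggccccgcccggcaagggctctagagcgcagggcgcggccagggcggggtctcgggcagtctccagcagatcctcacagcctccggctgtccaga
Col27a1: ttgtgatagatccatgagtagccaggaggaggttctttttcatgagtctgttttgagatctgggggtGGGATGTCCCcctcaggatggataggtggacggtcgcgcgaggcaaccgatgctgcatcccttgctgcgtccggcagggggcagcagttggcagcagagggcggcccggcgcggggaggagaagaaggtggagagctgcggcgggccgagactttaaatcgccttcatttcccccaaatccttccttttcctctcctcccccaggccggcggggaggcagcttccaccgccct

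Distances are counted from the RefSeq start, which need not be where transcription begins in these cells. In GENCODE M21 the gene Col1a2 begins elsewhere, at chr6:4504814, and Col27a1 at chr4:63214004. The capitals in Col1a2 are a CCAAT box that begins 109 bases before the RefSeq start and one on the opposite strand at that start. Col5a3 has a single CCAAT box, 122 bases before the start, and Col11a1 a single one on the opposite strand. The NF-κB consensus was found in 1 of the 7 promoters, that of Col27a1, on the opposite strand and 183 bases before the start. Of all 32851 promoters in the table, 37.4% held CCAAT and 4.51% held the NF-κB consensus. No promoter of the 7 held the AP-1 letters TGANTCA, which 7.81% of all promoters held, and the TATA letters TATAAA, found in 13.6% of all, were in Col3a1 and Col11a2. The Smad letters CAGAC (49.6% of all) were in Col1a2, Col3a1, Col5a1, Col11a1 and Col27a1. These matches describe the letters in a window and are not measured binding.

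Per length of transcript, Col1a1, Col1a2, Col5a2, Col3a1 and Col5a1 led in this order in every condition. In WT fibroblasts with PBS, reads per kb of transcript, scaled to the gene reads of each library as in RPKM, were 1227 ± 21.8 (SD, n = 3) for Col1a1, 812 ± 24.9 for Col1a2, 709 for Col5a2, 436 for Col3a1 and 229 for Col5a1. Col11a1 with 31.9 and Col5a3 with 28.1 followed, and their libraries overlapped. Col27a1 with 1.76 and Col11a2 with 1.61 also overlapped, and Col2a1 was last with 0.0162. With rmCIRP the order of the middle pair turned, with Col5a3 at 75.5 above Col11a1 at 25.4, and the libraries of Col1a2 (607) and Col5a2 (594) then overlapped. Together the 10 genes took 2.11 ± 0.06% (SD, n = 3) of the gene reads in WT cells with PBS. Their share was 1.66 ± 0.06% after rmCIRP, 2.28 ± 0.02% after rmTGF-β1 and 1.87 ± 0.03% after the combination. The share was thus lower with rmCIRP and higher with rmTGF-β1 than with PBS, with no overlap between libraries in either case.

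Col2a1, the cartilage collagen chain, was close to absent. Its normalized counts were 0 to 6 in WT libraries and 0 to 12 in libraries labelled TLR4-/- except for the third PBS library, which had 28. No fold change is given for it.

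**Figure D1:**
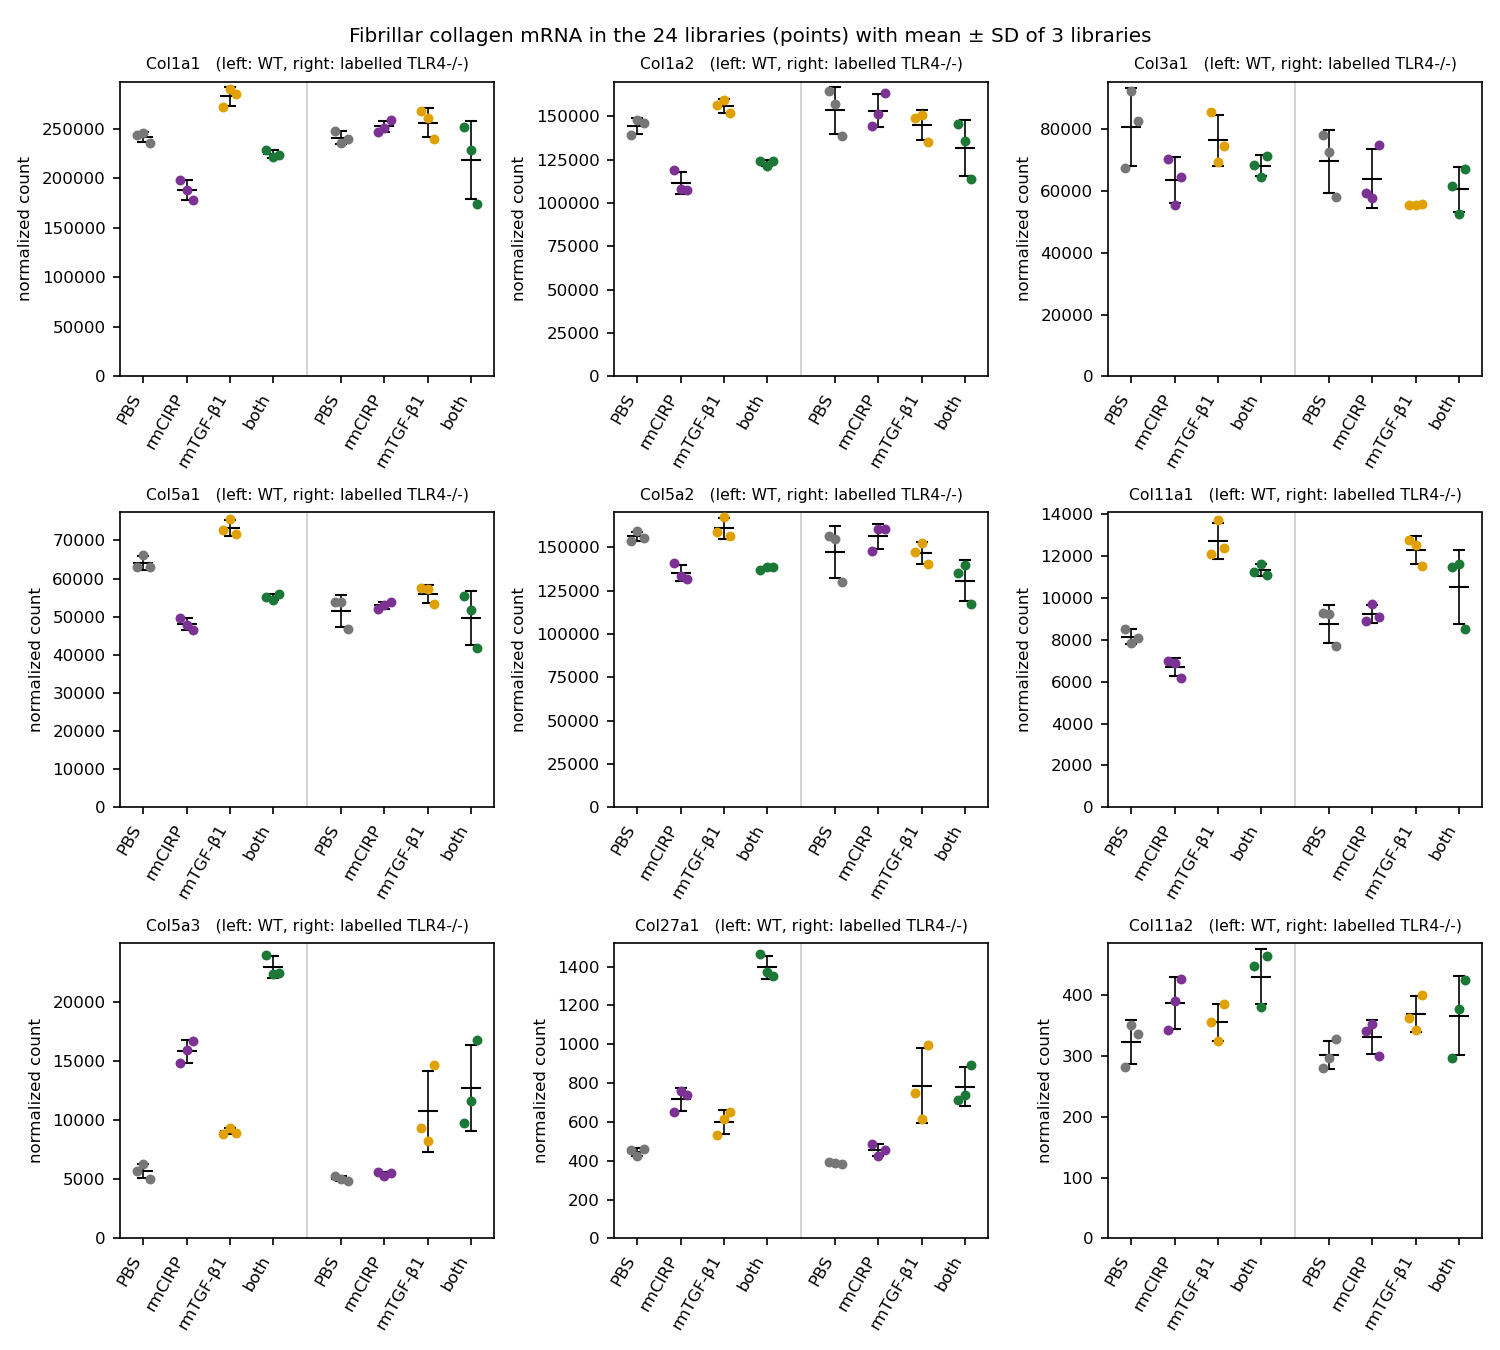
Normalized counts (linear axis from 0) of 9 fibrillar collagen genes in the 24 libraries, as points, with the mean ± SD of 3 libraries, for PBS, rmCIRP, rmTGF-β1 and both proteins in WT cells (left of each panel) and cells labelled TLR4-/- (right). Col1a1 in WT cells goes from 236246 to 246260 with PBS down to 177896 to 198032 with rmCIRP, while Col5a3 goes from 5069 to 6328 up to 14860 to 16762.

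The first comparison asked how rmCIRP alone changed the collagen genes of WT fibroblasts. The type I chains, the type III chain and the more abundant type V chains fell to 0.75- to 0.86-fold of the PBS level, Col11a1 fell as well, and Col5a3, Col27a1 and Col11a2 rose. Of the 10 genes, 6 fell and 3 rose at an adjusted p under 0.1, where 24.1% of the 16258 genes tested were lower and 19.8% higher. The median log2 fold change of the 10 was -0.32, beside -0.02 over all genes. Scaling by total counts turned the 3212 higher and 3918 lower calls over all genes into 2637 and 4935, and no gene of the 10 changed direction.

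Col1a1, the major chain of type I collagen, had normalized counts of 243961, 246260 and 236246 with PBS and of 198032, 188840 and 177896 with rmCIRP. The groups did not overlap, and the log2 fold change was -0.37 ± 0.08 (SE, edgeR adjusted p = 0.00082), or 0.77-fold. Its partner Col1a2 fell from 139000, 147971 and 146261 to 118952, 107835 and 107602, a log2 fold change of -0.38 ± 0.07 (adjusted p = 0.00023). The ratio of Col1a1 to Col1a2 per length was 1.51 ± 0.06 (SD, n = 3) with PBS and 1.52 ± 0.05 with rmCIRP, with overlapping libraries. Col3a1, the chain of type III collagen, had libraries at 67421, 92372 and 82579 with PBS and 70278, 55611 and 64474 with rmCIRP. Its groups overlapped, its log2 fold change was -0.35 ± 0.12 (adjusted p = 0.025), and the call was lost when the second PBS library (-0.24) or the second rmCIRP library was left out, with an adjusted p of up to 0.17.

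Among the type V chains the directions split. Col5a1, present in most type V molecules, fell from 63044, 66279 and 63071 to 49752, 47713 and 46574, a log2 fold change of -0.42 ± 0.07 (adjusted p = 4.5e-05). Col5a2 fell from 153752, 159212 and 155560 to 140657, 133240 and 131553, by 0.21 ± 0.06 on the log2 scale (adjusted p = 0.0096). Col5a3, the scarcest of these chains, went the other way. It had 5753, 6328 and 5069 normalized counts with PBS and 14860, 15946 and 16762 with rmCIRP, so that every rmCIRP library was above every PBS library, with a log2 fold change of 1.47 ± 0.16 (adjusted p = 2.4e-07), or 2.76-fold. This was the largest change in size among the 9 genes with a fold change. Exons of Col5a1 overlap the antisense genes 2810430I11Rik and Gm13372, which held at most 184 and 347 counts in a library. The sources used here do not give the strand setting of the counting.

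The type XI chains also split. Col11a1 fell from 8522, 7853 and 8060 to 6970, 6902 and 6176, with no overlap and a log2 fold change of -0.29 ± 0.09 (adjusted p = 0.013). Col11a2 had 282, 351 and 337 with PBS and 344, 391 and 428 with rmCIRP. These groups overlapped, the log2 fold change of 0.26 ± 0.12 passed the threshold narrowly, and the call was lost in 4 of 6 fits that each left out 1 library, with an adjusted p of up to 0.31. Col27a1 rose without overlap from 453, 423 and 459 to 649, 757 and 741, a log2 fold change of 0.68 ± 0.12 (adjusted p = 0.00015). By evolutionary clade, Col1a1, Col1a2, Col3a1 and Col5a2 of clade A fell and Col2a1 of the same clade had too few counts for a fold change, those of clade B fell (Col5a1, Col11a1) or rose (Col5a3, Col11a2), and Col27a1 of clade C rose.

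Marker genes moved alongside. With rmCIRP the summed normalized counts of 10 fibroblast markers went from 358520 to 382937 with PBS to 333207 to 341593, although within the list the means of Pdgfra and Dcn were higher (9554 against 7869 and 10221 against 8048) and those of Thy1 and Pdgfrb lower. Those of 8 smooth muscle or pericyte markers went from 98414 to 105634 down to 63014 to 69326. None of the markers in either list was at 0. Of the tested markers, 2 of 10 for fibroblasts were called higher and 5 lower, and 0 of 8 for smooth muscle or pericytes higher and 6 lower. Of all genes, 19.8% were called higher and 24.1% lower in this comparison. The chondrocyte marker sum was 1427 to 1539 with PBS, 970 to 1030 with rmCIRP and 1653 to 1795 with rmTGF-β1. These are the directions of Col11a1 for the sum, not for the list. With rmCIRP 1 of its 7 tested genes was called higher and 2 lower. With rmTGF-β1 0 of the 7 were called higher and 0 lower, with a median log2 fold change of -0.02. Epithelial markers summed to 260 to 359 with PBS and 139 to 191 with rmCIRP (0 of 4 higher, 4 lower), and mesothelial markers to 470 to 528 and 539 to 627 (1 of 5 higher, 1 lower). The part of these markers in the collagen values was not tested.

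The second comparison asked what rmTGF-β1 alone did in WT fibroblasts. Col11a1 and Col5a3 rose, and so did Col27a1, Col1a1 and Col5a1, whose calls were lost when single libraries were left out. No member was called lower. The count of 5 higher and 0 lower stands beside 5.77% of all genes called higher and 6.65% lower, and the median log2 fold change was 0.16 over the 10 genes and -0.02 over all. With total-count scaling the 938 higher and 1081 lower calls over all genes became 781 and 1400. This comparison used the same PBS libraries as the first.

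Col11a1 rose from 7853 to 8522 with PBS to 12066, 13679 and 12340 with rmTGF-β1, a log2 fold change of 0.64 ± 0.09 (adjusted p = 7.2e-05). Col5a3 had 8892, 9388 and 8972, all above PBS, with a log2 fold change of 0.66 ± 0.16 (adjusted p = 0.011). Col27a1 had 533, 615 and 652, also above every PBS library (0.43 ± 0.12, adjusted p = 0.034). Its call was lost when the second PBS library or the second or the third rmTGF-β1 library was left out, with an adjusted p of up to 0.15. For Col1a1 the 3 libraries with rmTGF-β1 held 272685, 290550 and 285473 and did not overlap those with PBS. Its log2 fold change of 0.22 ± 0.08 (adjusted p = 0.093) was close to the threshold, as was that of Col5a1 (72789, 75612 and 71544, 0.19 ± 0.07, adjusted p = 0.099). Both calls were lost under total-count scaling and in all 6 fits that each left out 1 library, with adjusted p of 0.12 to 0.26 for Col1a1 and 0.10 to 0.30 for Col5a1.

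The remaining genes did not pass. The log2 fold changes were 0.11 ± 0.07 for Col1a2, 0.04 ± 0.06 for Col5a2, 0.14 ± 0.12 for Col11a2 and -0.08 ± 0.12 for Col3a1. Side by side, the called directions of the 2 proteins were opposite in Col1a1, Col5a1 and Col11a1, which were lower with rmCIRP and higher with rmTGF-β1. They were the same in Col5a3 and Col27a1, higher with each. Of these, the rmTGF-β1 calls of Col1a1 and Col5a1 were lost in all 6 fits that each left out 1 library. That of Col27a1 was lost in some of them.

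**Figure D2:**
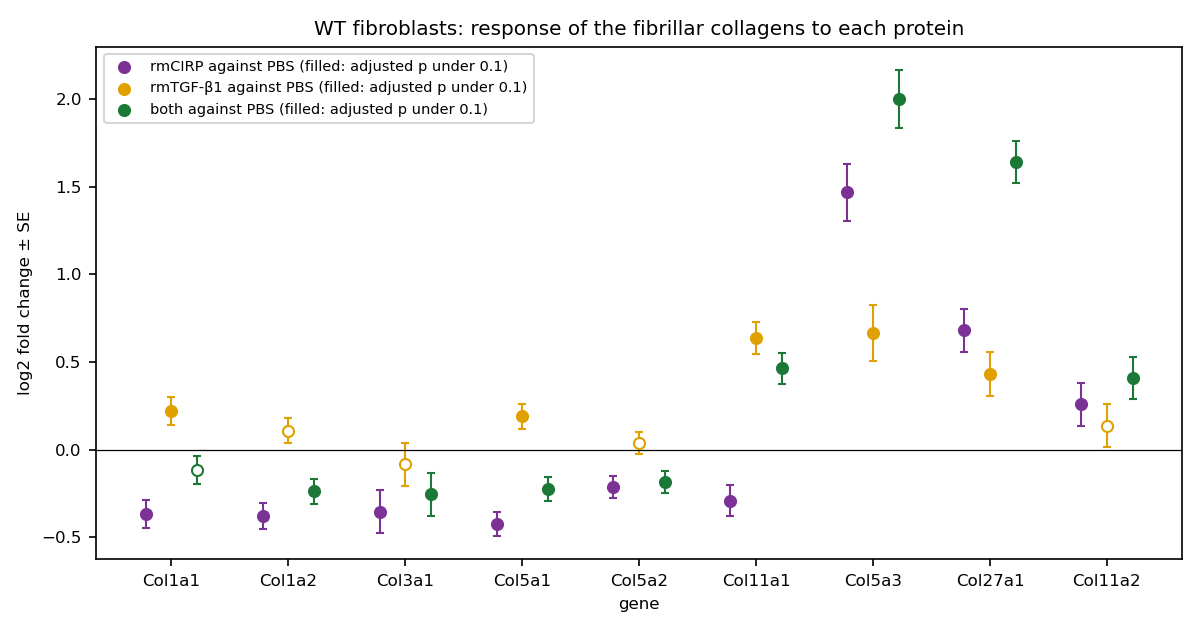
Log2 fold change ± SE (vertical axis) of 9 fibrillar collagen genes in WT fibroblasts for rmCIRP, rmTGF-β1 or both proteins against PBS, filled where the adjusted p was under 0.1. Points for rmCIRP lie below 0 for 6 genes and above 0 for Col5a3, Col27a1 and Col11a2, and with both proteins Col5a3 reaches 2.00 and Col27a1 1.64.

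The third set of comparisons added the proteins to each other in WT fibroblasts. On top of rmTGF-β1, rmCIRP again lowered the type I chains and the abundant type V chains and raised Col5a3, Col27a1 and Col11a2. Of the 10 genes, 4 were lower and 3 higher, beside 21.7% and 20.5% of all genes. Col1a1 had 228624, 221512 and 223857 with both proteins, all below the rmTGF-β1 libraries (-0.34 ± 0.08, adjusted p = 0.002). Col1a2 had 124412, 121403 and 124106 (-0.34 ± 0.07), Col5a1 55145, 54345 and 55899 (-0.42 ± 0.07), and Col5a2 137131, 138367 and 138660 (-0.23 ± 0.06), each without overlap. The log2 fold changes of Col3a1 (-0.17 ± 0.12) and Col11a1 (-0.17 ± 0.09) did not pass, and that of Col11a2 (0.27 ± 0.12, adjusted p = 0.079) was lost in 4 of 6 fits that each left out 1 library and under total-count scaling.

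Col5a3 and Col27a1 reached their highest levels with both proteins. Col5a3 had 24040, 22423 and 22519, a log2 fold change of 1.34 ± 0.16 over rmTGF-β1 alone (adjusted p = 9.3e-07) and of 0.53 ± 0.16 over rmCIRP alone (adjusted p = 0.024). Col27a1 had 1465, 1374 and 1354, with log2 fold changes of 1.21 ± 0.12 (adjusted p = 2.8e-08) and 0.96 ± 0.12 (adjusted p = 3.6e-06). Every library with both proteins was above every other WT library for these genes.

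On top of rmCIRP, rmTGF-β1 raised 5 genes and lowered 0, beside 10.0% and 10.5% of all genes. Besides Col5a3 and Col27a1 these were Col11a1 (0.75 ± 0.09, adjusted p = 3.4e-06), Col1a1 (0.25 ± 0.08, adjusted p = 0.034) and Col5a1 (0.20 ± 0.07, adjusted p = 0.06). The call of Col1a1 was lost without the third rmCIRP library (0.22, adjusted p = 0.13), and that of Col5a1 in 5 of 6 fits that each left out 1 library. Col1a2 (0.14 ± 0.07), Col3a1 (0.10 ± 0.12), Col5a2 (0.03 ± 0.06) and Col11a2 (0.15 ± 0.12) did not pass.

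Against PBS, the combination left 4 genes higher and 4 lower, beside 24.4% and 29.0% of all genes, with a median of -0.15 against -0.03 over all. Col5a3 was 4.00-fold (2.00 ± 0.16, adjusted p = 1.8e-09) and Col27a1 3.12-fold (1.64 ± 0.12, adjusted p = 2.7e-10) the PBS level. Col11a1 (0.46 ± 0.09) and Col11a2 (0.41 ± 0.12) were also higher. Col1a2 (-0.24 ± 0.07), Col5a1 (-0.23 ± 0.07), Col5a2 (-0.19 ± 0.06) and Col3a1 (-0.26 ± 0.12) were lower, the last with overlapping libraries and a call lost in 4 of 6 fits that each left out 1 library and with DESeq2. Col1a1 was below PBS in all 3 libraries, but the difference of -0.12 ± 0.08 did not pass (adjusted p = 0.24).

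Whether the joint effect differed from the sum of the separate ones on the log2 scale was tested as an interaction. None of the 10 genes passed with edgeR or DESeq2, and 1 had an unadjusted p under 0.05, beside 0.0492% and 5.64% of all genes by the edgeR rules. That gene was Col27a1, with an interaction of 0.53 ± 0.17 (adjusted p = 0.59, unadjusted p = 0.0049). It passed in a fit of the WT libraries alone, beside 125 of 15646 genes. It also passed with no filter on low counts, beside 198 of 34285, but calls of that fit are not comparable with the others.

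The next comparisons asked whether the libraries labelled TLR4-/- answered in the same way. The cells of each genotype came from a pool of lungs, so genotype and cell pool cannot be told apart. The p-values of the genotype comparisons do not measure the spread between pools. With PBS, Col5a1 was lower in them (53968, 53846 and 46673, -0.32 ± 0.07 against WT, adjusted p = 0.00071). It was 1 of 2 genes called, beside 47.1% of all genes, and the other was Col2a1, at the counts given above. In cells labelled TLR4-/-, rmCIRP changed none of the 10 genes with edgeR or DESeq2, and 0 had an unadjusted p under 0.05. Of all genes 0.00% were called with edgeR, 6.99% (1136) had an unadjusted p under 0.05, and DESeq2 called 33. Col1a1 had 248187, 235364 and 240032 with PBS and 247454, 251099 and 259084 with rmCIRP, and Col5a3 had 5291, 5028 and 4899 and then 5596, 5253 and 5532. Both pairs of groups overlapped. Those of Col27a1 did not, with 396, 390 and 384 with PBS and 485, 423 and 457 with rmCIRP. The approximate 95% confidence interval of the log2 fold change ran from -0.08 to 0.23 for Col1a1 and from -0.20 to 0.43 for Col5a3. Among the 9 genes the log2 fold changes ran from -0.11 ± 0.12 (Col3a1) to 0.23 ± 0.13 (Col27a1).

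The difference between the rmCIRP responses of the genotypes was tested directly. It passed in 7 of the 10 genes, beside 31.4% of all genes. The response was less negative in cells labelled TLR4-/- for Col5a1 (0.47 ± 0.10, adjusted p = 0.0011), Col1a1 (0.44 ± 0.11, adjusted p = 0.0058), Col1a2 (0.38 ± 0.10, adjusted p = 0.008), Col5a2 (0.31 ± 0.09, adjusted p = 0.014) and Col11a1 (0.38 ± 0.13, adjusted p = 0.033). It was less positive for Col5a3 (-1.35 ± 0.23, adjusted p = 0.00013) and Col27a1 (-0.45 ± 0.18, adjusted p = 0.071). The call of Col27a1 was lost in 7 and that of Col11a1 in 3 of 12 fits that each left out 1 library, with adjusted p of up to 0.13 for each. For Col3a1 (0.24 ± 0.17) and Col11a2 (-0.12 ± 0.17) the difference did not pass, with 95% confidence intervals from -0.10 to 0.57 and from -0.45 to 0.22. The macrophage marker sums given above moved with the genotype label, and their part in these differences was not tested.

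**Figure D3:**
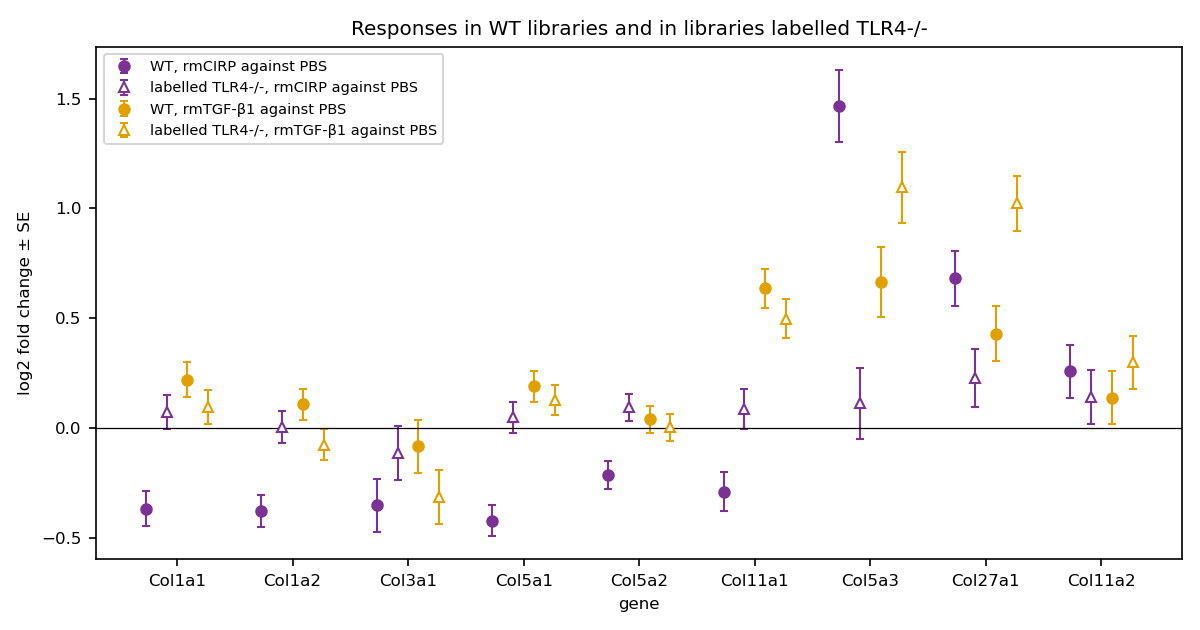
Log2 fold change ± SE (vertical axis) of 9 fibrillar collagen genes for rmCIRP (purple) and rmTGF-β1 (yellow) against PBS in WT libraries (filled circles) and in libraries labelled TLR4-/- (open triangles). The rmCIRP triangles lie between -0.11 and 0.23, while the rmCIRP circles run from -0.42 to 1.47.

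With rmTGF-β1, the libraries labelled TLR4-/- showed 4 genes higher and 1 lower, beside 12.1% and 11.7% of all genes (1975 and 1909, or 1517 and 2481 under total-count scaling). Col5a3 had 9349, 8299 and 14720, against 4899 to 5291 with PBS (1.10 ± 0.16, adjusted p = 5.1e-05). Col27a1 had 748, 615 and 996, against 384 to 396 (1.02 ± 0.12, adjusted p = 4.9e-06). The third library was the highest for both, and with the third library of both groups left out the log2 fold changes were 0.81 for Col5a3 and 0.81 for Col27a1. Col11a1 had 12739, 12520 and 11509, against 7672 to 9262 (0.50 ± 0.09, and 0.54 without the third libraries). Col11a2 (0.30 ± 0.12, adjusted p = 0.095) was lost without the third libraries (0.23, adjusted p = 0.21), and Col3a1 (-0.32 ± 0.12, adjusted p = 0.077) was lost in 5 of 6 fits that each left out 1 library. Col1a1 (0.10 ± 0.08) and Col5a1 (0.13 ± 0.07) did not pass, but did without the third libraries (0.14 and 0.16, adjusted p = 0.023 and 0.018). The third library with both proteins is not part of this comparison. With the third rmTGF-β1 library alone left out the values were also 0.14 and 0.16, but neither gene passed. Over the 6 fits that each left out 1 library the adjusted p was at least 0.34 for Col1a1 and 0.185 for Col5a1. The difference between the genotypes in the rmTGF-β1 response passed in 0 of the 10 genes with edgeR, beside 0.0861% of all genes, and in 1 with DESeq2, beside 163 of 12350 genes. Of the 10 genes 1, Col27a1, had an unadjusted p under 0.05, beside 10.4% of all (0.59 ± 0.18, adjusted p = 0.21). Its value was 0.39 without the third rmTGF-β1 library labelled TLR4-/- and 0.74 without the second, where it passed (adjusted p = 0.036).

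In cells labelled TLR4-/-, adding rmCIRP to rmTGF-β1 changed 0 of the 10 genes, beside 2.69% of all genes (254 higher and 183 lower, or 425 and 149 under total-count scaling). This count moved with single libraries. It was 5 without the third rmTGF-β1 library, beside 2141 of 16525 genes in that fit, 5 without the first library with both proteins, beside 16.2%, and 1 without the third library of either group, beside 3.96%. With all libraries 4 genes had an unadjusted p under 0.05, beside 17.9% of all genes. With both proteins Col1a1 had 252212, 229073 and 174630 and Col5a3 had 9777, 11642 and 16787, so that the third library was the lowest of its group in the first gene and the highest in the second. Adding rmTGF-β1 to rmCIRP raised Col5a3 (1.22 ± 0.16, 0.97 without the third libraries) and Col27a1 (0.78 ± 0.12, 0.67 without them), beside 17.2% of all genes, and lowered Col1a1 (-0.21 ± 0.08), Col1a2 (-0.22 ± 0.07) and Col5a2 (-0.26 ± 0.06), beside 15.6%. Without the third libraries Col1a1 (-0.07, adjusted p = 0.26) and Col1a2 (-0.13, adjusted p = 0.12) no longer passed, Col5a2 (-0.19) still did, and Col11a1 passed as higher (0.32).

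Under rmTGF-β1, the genotypes differed in the response to added rmCIRP in Col5a3 (-1.10 ± 0.22, adjusted p = 0.0013) and Col27a1 (-1.23 ± 0.16, adjusted p = 8.7e-06), 2 of the 10 genes beside 20.9% of all (1700 higher and 1690 lower, or 2321 and 1375 under total-count scaling). Without the third libraries these were -1.06 and -1.13, and Col1a1 (0.19), Col1a2 (0.24) and Col5a1 (0.31) passed as well, making 5 beside 23.7% of all genes in that fit. Without the third library with both proteins alone the count was 6, beside 27.5%.

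The ratio between chains is a level that does not depend on library size. Per length, Col5a3 stood at 0.122 ± 0.011 (SD, n = 3) of Col5a1 in WT cells with PBS. It was 0.455 ± 0.042 after rmCIRP, 0.170 ± 0.002 after rmTGF-β1 and 0.573 ± 0.023 after the combination, and no 2 of these 4 groups overlapped. The share of Col5a3 in the type V transcripts went from 2.90 ± 0.27% with PBS to 9.04 ± 0.77%, 4.31 ± 0.05% and 12.1 ± 0.46% in the same order. In libraries labelled TLR4-/- the Col5a3 to Col5a1 ratio was 0.136 ± 0.008 with PBS and 0.142 ± 0.006 with rmCIRP, which overlapped, and ran from 0.199 to 0.379 with rmTGF-β1 and from 0.243 to 0.553 with both proteins. The highest value in each of the last groups was the third library. The ratio of Col11a1 to Col5a1 was 0.130 to 0.148 in WT cells with PBS, 0.182 to 0.198 with rmTGF-β1 and 0.217 to 0.234 with both proteins. Col5a2 to Col5a1 was 3.05 to 3.13 with PBS, 3.54 to 3.59 with rmCIRP and 2.77 to 2.81 with rmTGF-β1, again without overlap.

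**Figure D4:**
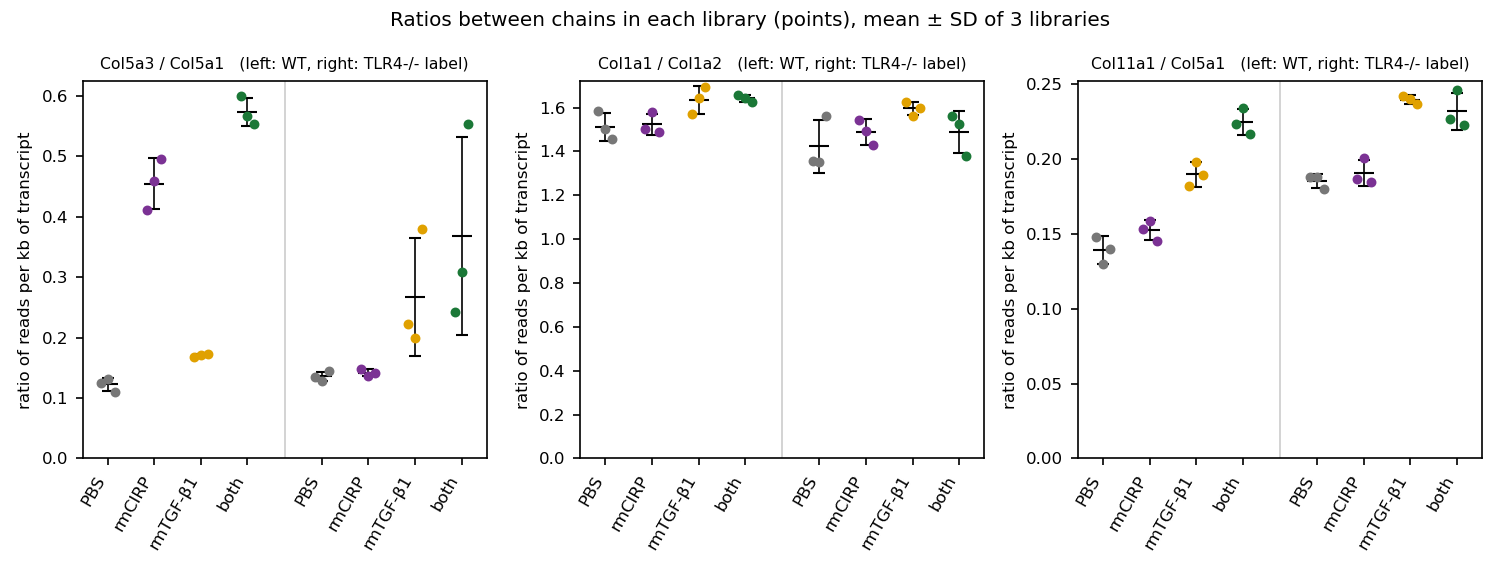
Ratio of reads per kb of transcript (linear axis from 0) of Col5a3 to Col5a1, Col1a1 to Col1a2 and Col11a1 to Col5a1 in each library, as points, with the mean ± SD of 3 libraries, in WT cells (left of each panel) and cells labelled TLR4-/- (right). The Col5a3 to Col5a1 ratio in WT cells is 0.110 to 0.131 with PBS, 0.410 to 0.494 with rmCIRP and 0.553 to 0.599 with both proteins. Col1a1 to Col1a2 lies between 1.46 and 1.70 in WT cells. With both proteins it is 1.63 to 1.66, above every library with PBS (1.46 to 1.58) or rmCIRP (1.49 to 1.58).

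Genes that process collagen were followed by role in WT cells. Of all genes tested, 19.8% were called higher and 24.1% lower with rmCIRP, and 5.77% and 6.65% with rmTGF-β1. The counts of every list that follows in WT cells are to be read beside these shares. Of 13 tested genes for prolyl and lysyl modification, 2 rose and 3 fell with rmCIRP, where P4ha2, a prolyl 4-hydroxylase subunit, rose most (0.38 ± 0.04) and P4ha3, another such subunit, fell most (-0.60 ± 0.15). With rmTGF-β1, 6 rose and 0 fell, led by Plod2, a lysyl hydroxylase (0.21 ± 0.05). Of 9 genes for chaperones and secretion, 2 rose and 3 fell with rmCIRP, from Tmem38b, an ion channel of the endoplasmic reticulum (0.43 ± 0.05), to Serpinh1, the collagen chaperone HSP47 (-0.17 ± 0.05), and 4 rose with rmTGF-β1, led by the prolyl isomerase gene Fkbp14 (0.19 ± 0.06). The medians of these lists were -0.01 and -0.03 with rmCIRP and 0.13 and 0.06 with rmTGF-β1.

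Among 7 tested genes for propeptide removal, 1 rose and 4 fell with rmCIRP. The procollagen N-proteinase gene Adamts14 rose from 698 ± 21.9 (SD, n = 3) to 1426 ± 54.2 normalized counts (1.03 ± 0.10), and the tolloid-like proteinase gene Tll1 fell (-0.32 ± 0.07). With rmTGF-β1, 3 of them rose, led by Pcolce2, an enhancer of the C-proteinase (0.35 ± 0.09). Of the 5 lysyl oxidases 3 fell with rmCIRP, most of all Loxl3 from 6902 ± 81.2 to 3962 ± 34.0 (-0.81 ± 0.08), and none rose. With rmTGF-β1, 2 rose, most of all Lox from 56611 ± 1634 to 87398 ± 3679 (0.62 ± 0.07). The medians of the propeptide and lysyl oxidase lists were -0.22 and -0.32 with rmCIRP and -0.01 and 0.08 with rmTGF-β1.

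Fibril-associated proteins gave 2 rises and 4 falls among 14 tested genes with rmCIRP. Fmod, fibromodulin, which binds fibrils, fell from 832 ± 82.7 to 494 ± 40.2 (-0.76 ± 0.14), while the matricellular gene Thbs2 rose (0.37 ± 0.09). With rmTGF-β1, 2 rose and 1 fell, namely Postn (0.42 ± 0.07) as the largest rise and Tnxb (-0.58 ± 0.19). For 10 genes of collagen breakdown, 4 rose and 5 fell with rmCIRP. Mmp13, a collagenase, rose from 4803 ± 605 to 41962 ± 3062 normalized counts (3.12 ± 0.24), and Mrc1, a receptor that takes up collagen, fell (-0.71 ± 0.09). With rmTGF-β1, 1 rose, Mmp14 (0.26 ± 0.08), and 2 fell, most of all Mmp9 (-0.33 ± 0.10). The medians of the fibril-associated and breakdown lists were -0.07 and -0.11 with rmCIRP and 0.07 and -0.05 with rmTGF-β1. Mrc1 is also a macrophage gene, and the sum of the macrophage markers was 92149 to 100467 with PBS and 80763 to 86124 with rmCIRP in WT cells. Of the 13 macrophage markers 4 were called higher, among them Adgre1 (2033 to 4014 in the means) and Cd14 (1569 to 5122), and 9 lower, and their part in this value was not tested.

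Of 10 TGF-β1 target genes, 7 rose and none fell with rmTGF-β1, led by Pmepa1 from 15081 ± 640 to 20929 ± 457 (0.47 ± 0.04), an inhibitor of the pathway. With rmCIRP, 2 of the same list rose and 4 fell, from Skil, a Smad co-repressor (0.34 ± 0.04), to Tgfbi, a matrix protein (-0.90 ± 0.15). Of 20 transcription factor genes and other regulators known to act on collagen genes, 8 rose and 2 fell with rmCIRP, led by Nfkb1, a subunit of NF-κB, from 4530 ± 571 to 12411 ± 408 (1.45 ± 0.15), with Fli1 the largest fall (-0.47 ± 0.10). With rmTGF-β1 only Runx2 rose (0.39 ± 0.07) and Smad3 fell (-0.40 ± 0.12). The medians of the target and regulator lists were -0.06 and 0.10 with rmCIRP and 0.23 and -0.02 with rmTGF-β1. In the libraries labelled TLR4-/-, no gene of these 8 lists passed with rmCIRP, as none of all 16258 genes did with edgeR. With rmTGF-β1 there, 8 of the 10 TGF-β1 target genes rose and 1 fell, beside 12.1% and 11.7% of all genes. Without the third libraries 7 rose and 1 fell, beside 1806 and 1740 of 16483 genes.

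The course of Col1a1 over the 8 condition means was compared with that of 12311 genes whose mean reached 50 normalized counts, as a description, since these conditions share libraries and cell pools. The genes most alike were Fhl2 (Pearson's r = 0.98), Eed (0.97), Gja3 (0.97), Fads2 (0.96) and Habp4 (0.96). With the third rmTGF-β1 library and the third library with both proteins labelled TLR4-/- left out of the means, r was 0.98, 0.96, 0.97, 0.95 and 0.97 for the same genes, which then stood at places 2, 8, 7, 15 and 4. Among the collagens, r with Col1a1 was 0.91 for Col1a2, 0.83 for Col5a2, 0.76 for Col5a1, 0.67 for Col11a1 and 0.31 for Col3a1. Without those libraries r was 0.92, 0.79, 0.73, 0.74 and 0.14, at places 61, 391, 727, 637 and 5590. Over the same 8 means, r of Col5a3 was 0.97 with Col11a2 (0.94 without those libraries) and 0.95 with Col27a1 (with and without them). Without them Col11a2 stood at place 330 and Col27a1 at place 237 among the genes compared with Col5a3. Many other genes were thus more alike to Col5a3. The r of Col5a3 with Col1a1 was -0.53 (-0.52 without those libraries).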

How the data were processed

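Total RNA from pulmonary fibroblasts was sequenced by the study's authors as 24 stranded total-RNA libraries. The authors checked the reads with FastQC, aligned them with STAR to the mouse genome and counted them per gene with HTSeq (per the labels, build NCBIM37). Versions and the strand option are not given in the sources used here. The deposited values are raw counts per gene, 1 table per library. The 5 tally lines (14.53 to 16.13% of the total) were left out. Members and gene lists were chosen with earlier results of these data known. All 24 libraries entered 1 fit in edgeR 4.0.16 (R 4.3.3, limma 3.58.1) with TMM scaling, the filterByExpr filter and the quasi-likelihood test, with Benjamini-Hochberg adjustment over 16258 genes and a call at an adjusted p under 0.1. SE is the log2 fold change divided by the root of F. Normalized counts are counts divided by size factors of DESeq2 1.42.0. Levels per length used the longest coding transcript (GENCODE M21). Named besides the members are the called gene of each list with the largest rise and the largest fall in each WT comparison with 1 protein, with a mean no lower than 50 normalized counts, the defining markers, and the 5 genes most like Col1a1. Alternatives were DESeq2, other scalings, other filters, a replicate block, fits of only the libraries compared, and leaving out libraries. The edgeR fit, its form with a replicate block and the DESeq2 fit were tested on simulated counts, for rmCIRP against PBS in WT cells. The sign of the genotype difference in the rmCIRP response was checked with edgeR on the same counts. The other steps were not tested in this way.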

Additional observations from a re-analysis of the deposited data

Results flagged for a closer look

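In 7 genes the response to rmCIRP differed between libraries labelled TLR4-/- and WT libraries by the test of the difference itself (edgeR, log2 difference of the fold changes, TLR4-/- label minus WT). Of all genes, 31.4% passed this test. Genotype and cell pool cannot be told apart here. Higher were Col5a1 at 0.47 ± 0.10, Col1a1 at 0.44 ± 0.11, Col1a2 at 0.38 ± 0.10, Col11a1 at 0.38 ± 0.13 and Col5a2 at 0.31 ± 0.09. Lower were Col5a3 at -1.35 ± 0.23 and Col27a1 at -0.45 ± 0.18. The calls of Col27a1 and Col11a1 were lost in some fits that left out a single library, as given above. In the presence of rmTGF-β1 the difference passed for Col27a1 at -1.23 ± 0.16 and Col5a3 at -1.10 ± 0.22, beside 20.9% of all genes. Tlr4 counts were not lower in the libraries labelled TLR4-/-, macrophage marker sums were higher there, and the part of either in these differences was not tested.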

How the results depend on the processing

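Counts of called members moved as follows, with the genes called of all tested in that fit in brackets. With rmTGF-β1 in WT cells, 5 became 3 under total-count scaling (2181 of 16258). In cells labelled TLR4-/-, both proteins against rmTGF-β1 gave 0, but 1 with DESeq2 (902 of 10356) and 7 with no filter (1580 of 34285). The same comparison gave 2 with the replicate block (810 of 16258) and 1 without the third library of either group (652 of 16483). Both proteins against rmCIRP gave 5, but 3 in a fit of only those libraries (2710 of 15192). The genotypes with PBS gave 2, but 1 with DESeq2 (6982 of 18997), 6 with no filter (6889 of 34285) and 1 with a mean count of at least 10 (7374 of 15149). The genotype difference in the rmCIRP response under rmTGF-β1 gave 2, but 5 with no filter (3163 of 34285) and 5 without the third library of either group (3903 of 16483). That in the rmTGF-β1 response gave 0, but 1 with DESeq2 (163 of 12350) and 4 with no filter (563 of 34285). The interaction gave 0, but 1 with no filter (198 of 34285) and 1 in the WT libraries alone (125 of 15646). With no filter, the smallest edgeR adjusted p for rmCIRP against PBS in cells labelled TLR4-/- was 2.2e-230. In the main fit it was 0.10, so calls of the fit with no filter are not comparable with the others. Leaving out 1 library gave 2 to 3 (WT rmTGF-β1), 3 to 5 (WT both against rmCIRP), 3 to 5 (TLR4-/- label, rmTGF-β1), 0 to 5 (both against rmTGF-β1), 3 to 7 (both against rmCIRP), 1 to 3 (genotypes with PBS), 2 to 6 (rmCIRP response under rmTGF-β1) and 0 to 1 (rmTGF-β1 response). Signs turned in 2 fits: Col3a1 with rmTGF-β1 in WT cells ran from -0.18 to 0.035, and Col1a1 in the genotype difference under rmTGF-β1 from -0.0078 to 0.24. The other 178 counts under an alternative stayed within 1.5 times. Replicate numbers are shared between groups, but the labels give them no meaning. The deviations of libraries with the same number from their group means had a mean correlation of 0.012 over 84 pairs, with 4 pairs over 0.1, and 12 of 24 libraries were closest to their own number, so the block is only an alternative. The replicate block brought Col11a1 past the threshold in WT cells for both proteins against rmTGF-β1 (-0.17, adjusted p = 0.059) and in cells labelled TLR4-/- for both against rmCIRP (0.18, adjusted p = 0.068), and Col5a1 in the genotype difference under rmTGF-β1 (0.23, adjusted p = 0.074). Leaving out the third library of both groups, in the tests and in the correlations, was chosen after seeing the data. The cause of these changes was not tested, except that fewer libraries or a changed filter alter what is tested. Col11a2 rests on 281 to 456 raw counts per library, and Col2a1 is too sparse for a fold change.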
